A study of Mus musculus with 8 samples.

Results

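The genes described here are 10 immediate early and activity-dependent genes, Fos, Fosb, Fosl2, Jun, Junb, Egr1, Nr4a1, Nr4a2, Npas4 and Ier2. They were named as a group, by a rule that uses no measured value but with earlier results of these data known, from 32531 gene symbols in a count table of mouse islet RNA. Islets, the hormone-secreting clusters of the pancreas, came from 4 control mice and 4 β-tetO-NICD mice, 1 mouse per library. All 8 mice carried RIP-Cre, which drives Cre from the rat insulin promoter in β cells, and a Rosa26-rtTA allele that also encodes EGFP, and all received doxycycline for 8 weeks. The tetO_NICD transgene, which encodes the intracellular domain of Notch1, was present in β-tetO-NICD mice and absent from controls. The strain was a mix of C57BL/6J, 129X1/SvJ and BALB/c in both groups, and the labels give no age. Because the controls also carry Cre, rtTA and doxycycline, the comparison shows only what differed with the NICD transgene, and whole islets hold other cells beside the β cells in which Cre acts.

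Immediate early genes are transcribed within minutes of a stimulus from factors that are already in the cell, and their short-lived mRNAs mostly encode transcription factors that then act on later genes. In β cells and neurons, depolarisation and calcium entry, cAMP and growth factor signals reach them through the factors CREB, SRF and MEF2. Tissue handling is also known to raise many of them. The Fos and Jun proteins pair to form AP-1, Egr1 is a zinc finger factor, Nr4a1 and Nr4a2 are orphan nuclear receptors, Npas4 is a bHLH-PAS factor tied closely to calcium entry, and Ier2 is a small nuclear protein outside these families.

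The promoters of Npas4, Fos and Nr4a1 are shown because calcium and cAMP act on these genes through CREB, whose binding motif is the CRE. Each sequence is the 250 bases before the annotated start, 5′ to 3′ on the strand of the gene, from RefSeq on GRCm38.p6, at chr19:4989972-4990221 (minus strand) for Npas4, chr12:85473640-85473889 (plus strand) for Fos and chr15:101266596-101266845 (plus strand) for Nr4a1. Capitals mark the CRE core TGACG, read on either strand, so that it also appears as CGTCA. The RefSeq starts of Npas4 and Nr4a1 lie inside the longer gene spans given below from GENCODE, so other transcripts of these genes start elsewhere.
Npas4: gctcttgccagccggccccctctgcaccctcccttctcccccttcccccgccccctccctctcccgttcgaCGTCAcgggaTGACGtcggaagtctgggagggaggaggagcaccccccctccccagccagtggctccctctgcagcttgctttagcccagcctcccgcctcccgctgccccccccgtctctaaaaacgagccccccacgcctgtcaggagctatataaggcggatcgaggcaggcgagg
Fos: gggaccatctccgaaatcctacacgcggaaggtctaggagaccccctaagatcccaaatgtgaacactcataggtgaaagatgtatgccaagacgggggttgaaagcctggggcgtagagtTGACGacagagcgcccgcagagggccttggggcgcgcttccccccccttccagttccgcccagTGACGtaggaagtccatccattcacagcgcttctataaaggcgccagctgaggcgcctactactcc
Nr4a1: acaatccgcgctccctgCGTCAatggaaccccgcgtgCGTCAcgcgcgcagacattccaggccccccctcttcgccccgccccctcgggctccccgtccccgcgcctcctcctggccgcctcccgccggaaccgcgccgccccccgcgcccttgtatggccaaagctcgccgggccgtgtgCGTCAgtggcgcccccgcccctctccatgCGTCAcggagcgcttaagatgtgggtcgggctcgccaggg

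The Npas4 promoter held a pair of CRE cores at −179 to −175 and −169 to −165, counted from the start. Fos held them at −129 to −125 and −66 to −62, and Nr4a1 held 4. Promoters of 8 members were scanned. Those of Ier2 and Egr1 were not, so nothing here describes their motifs. Of the 8, 6 had a CRE core (Fosb, Junb and Nr4a2 as well), against 17.77% of 32851 promoters of the same length. The full CRE, TGACGTCA, which contains the core, was in none of the 8 and in 1.55% of all promoters. None of the 8 held the AP-1 site TGANTCA (6.75% of all), the EGR site GCGTGGGCG (0.54%) or a CArG box, the motif of SRF (1.47%). The RBPJ core TGGGAA, the motif of the factor through which NICD acts, was in Jun alone of these 8, at −61 to −56, and in 21.59% of all promoters. These matches describe letters in 1 window and say nothing of binding.

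The libraries held between 22430941 and 25950164 counts in controls, with 21701223 to 26413146 in the β-tetO-NICD group. Levels are given in CPM, counts scaled to a common library size after TMM normalization, and 3 counts, taken as the floor, came to at most 0.138 and 0.151 CPM, which covers counting error only. Notch1, part of which the transgene encodes, had 1051 to 1562 counts in controls and 11388 to 36628 in β-tetO-NICD islets. Eif2s3y, a Y-linked gene, had 1300 and 1527 counts in controls 2 and 4, 1465 in β-tetO-NICD library 5 and no more than 1 in the other 5, although the methods describe male mice for expression work. Across 14655 genes, the relation between transcript length and a library's deviation from the mean was positive in controls 1, 2 and 4 and β-tetO-NICD library 1 (Spearman's rho 0.418 to 0.497) and negative in the other 4 (−0.174 to −0.521). That sign fell on 3 controls and 1 β-tetO-NICD library against 1 control and 3 β-tetO-NICD libraries, so a split by it leaves 1 library in an arm, with no spread, and is given below as values only. The markers of β cells were present in every library, and no gene of the cell type lists was at 0 in all of them.

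All 10 members passed the filter of at least 10 counts in at least 4 libraries. Ier2 was higher in β-tetO-NICD islets, Npas4 was lower, and the other 8 did not pass an adjusted p of 0.05 in edgeR's quasi-likelihood test across 15082 genes. The members therefore gave 2 calls in 10, against 6.76% of all genes tested, with 1 of 10 higher (4.19% of all) and 1 of 10 lower (2.57% of all). Only for Ier2 did the groups not overlap, 1 member in 10 against 16.1% of all genes. The median log2 fold change of the 10 was −0.13, with 3 positive and 7 negative, and the median over all genes was 0.0007. This tally depended on the fit and on 1 library. Fos turned positive, at 0.005, with upper-quartile normalization. Without control 1, Fos, Fosb, Egr1 and Nr4a2 turned positive (0.265, 0.826, 0.222 and 0.135), as they did with the length relation as a covariate. In bulk RNA, fewer cells of a type and less RNA per cell cannot be told apart, which holds for every level below.

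**Figure D1:**
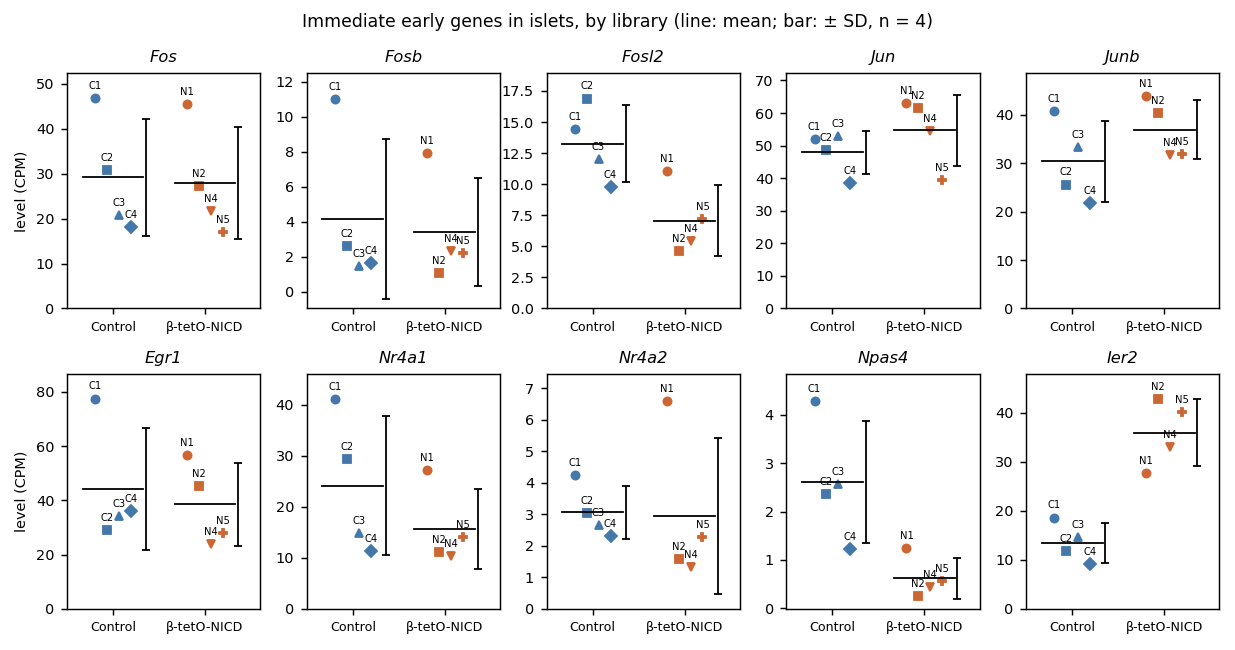
Level of each of the 10 members in CPM (linear axis) in the 4 control and 4 β-tetO-NICD libraries, with points for libraries and bars for the mean ± SD of 4. Ier2 is the member whose groups do not overlap (9.09 to 18.6 against 27.7 to 42.8 CPM), and for Npas4 only β-tetO-NICD library 1 (1.24 CPM) lies above the lowest control (1.22 CPM).

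Ier2, which encodes a nuclear protein that takes part in transcription and lies on chromosome 8 from 84661331 to 84662852 (minus strand, GRCm38), had 404, 279, 368 and 224 counts in controls 1 to 4. The numbers were 584, 979, 994 and 799 in libraries 1, 2, 4 and 5 of the β-tetO-NICD group. In CPM these were 18.6, 11.8, 14.6 and 9.09 against 27.7, 42.8, 33 and 40.2. Every β-tetO-NICD library lay above every control, and the lowest of them was library 1. The mean went from 13.5 ± 4.08 to 35.9 ± 6.85 CPM (SD, n = 4 each), a log2 fold change of 1.41 (standard error 0.24, 95% interval 0.88 to 1.94, 2.66-fold, edgeR adjusted p = 0.00873). Leaving out each library in turn kept it between 1.27 and 1.62, with an adjusted p of at most 0.0362. Ier2 has the shortest transcript of the 10, at 1522 bases, and the libraries differed in their relation to length. Among the 3 controls and 1 β-tetO-NICD library with a positive relation the difference was 1.13 on the log2 CPM scale, and among the 1 control and 3 β-tetO-NICD libraries with a negative relation it was 1.40. With the length relation as a covariate the log2 fold change was 1.13 (edgeR adjusted p = 0.0484). In the 5 libraries with at most 1 Eif2s3y count, Ier2 did not pass (2 controls and 3 β-tetO-NICD, log2 fold change 1.05, edgeR adjusted p = 0.150).

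Npas4, an activity-dependent factor first known from neurons (chromosome 19, 4984355 to 4990316, minus strand), had the lowest level per length of the 10. Controls 1 to 4 gave 93, 56, 65 and 30 counts, and libraries 1, 2, 4 and 5 of the β-tetO-NICD group gave 26, 6, 13 and 11. Expressed as CPM, the values were 4.29, 2.36, 2.57 and 1.22 against 1.24, 0.262, 0.432 and 0.554. The groups met at 1 point, where β-tetO-NICD library 1 stood just above control 4, and the other 3 β-tetO-NICD libraries were under every control. The mean fell from 2.61 ± 1.27 to 0.621 ± 0.427 CPM (SD, n = 4 each), 4.22-fold, with a log2 fold change of −2.08 (standard error 0.52, 95% interval −3.24 to −0.91, edgeR adjusted p = 0.0453). This call was near the threshold. It passed in 2 of the 8 fits that left out 1 library, without control 4 (edgeR adjusted p = 0.0445) and without β-tetO-NICD library 1 (0.00719). The latter fit called 33.2% of all genes. Without β-tetO-NICD library 2 the edgeR adjusted p reached 0.13. The log2 fold change was between −2.64 and −1.73 in the 8 fits and −1.69 with the length relation as a covariate (edgeR adjusted p = 0.163). The difference in log2 CPM was −0.87 among the libraries of positive relation and −2.45 among those of negative relation.

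Fosl2 (Fra-2), the AP-1 subunit that outlasts Fos after a stimulus and lies on chromosome 5 from 32135801 to 32157842, was the third member with a sizeable estimate. Its levels were 14.4, 16.9, 12.0 and 9.74 CPM in controls, against 11.02, 4.63, 5.45 and 7.20 CPM for libraries 1, 2, 4 and 5 of the β-tetO-NICD group. Library 1 again lay among the controls, and the other 3 lay under all of them. The log2 fold change was −0.91 (standard error 0.29, 95% interval −1.56 to −0.26, edgeR adjusted p = 0.0816), which does not pass, and it ranged from −1.20 to −0.75 with 1 library left out. It passed in 1 of these 8 fits, without β-tetO-NICD library 1 (edgeR adjusted p = 0.00908), and also with DESeq2 (adjusted p = 0.0242). Those 2 settings called 33.2% and 18.2% of all genes, against 6.76% in the main fit. The log2 fold change of Fosl2 was −0.59 with a transcript length offset (edgeR adjusted p = 0.127) and −0.57 with the length relation as a covariate (edgeR adjusted p = 0.367). Fosl2 has the longest transcript of the 10, at 6537 bases, and the difference in log2 CPM was −0.27 among the libraries of positive length relation and −1.07 among the others.

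Fos and Fosb, the classical inducible AP-1 subunits, varied widely within both groups. Fos (chromosome 12, 85473890 to 85477273) had 46.9, 30.9, 20.9 and 18.1 CPM in controls and 45.5, 27.2, 21.6 and 17.1 CPM in β-tetO-NICD islets, nearly the same 4 values in each. Its log2 fold change was −0.07 (95% interval −0.87 to 0.74, edgeR adjusted p = 0.909) and the interval spans 0. Fosb (chromosome 7, 19302696 to 19310051) had 10.98 CPM in control 1 and 1.46 to 2.62 in controls 2 to 4, and 7.94 CPM in β-tetO-NICD library 1 against 1.09 to 2.36 in the others. For Fosb library 1 of each group stood far above its companions, and the estimate of −0.30 had a 95% interval of −1.98 to 1.39 (edgeR adjusted p = 0.801).

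Jun and Junb, which encode the partners of the Fos proteins in AP-1, had intervals that spanned 0. Jun (chromosome 4, 95049034 to 95052222) had 52.1, 48.7, 52.8 and 38.5 CPM in controls and 63.2, 61.6, 54.5 and 39.3 CPM in β-tetO-NICD islets, and the log2 fold change was 0.19 (95% interval −0.22 to 0.59, edgeR adjusted p = 0.482). Its highest 3 values were all in β-tetO-NICD libraries, while library 5 was near the lowest control. Junb (chromosome 8, 84974484 to 84978718) had 40.7, 25.6, 33.4 and 21.8 CPM against 43.9, 40.3, 31.7 and 31.8 CPM, and its estimate of 0.28 had an interval of −0.19 to 0.76 (edgeR adjusted p = 0.365). All 4 β-tetO-NICD values of Junb were above the control mean, but 3 of them lay within the control range. Junos, an antisense gene, overlaps Jun, and Prdx2 on the other strand overlaps the 3′ end of Junb, and since the sources used here do not say whether counting used strand, reads in those stretches cannot be told apart.

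Egr1, the zinc finger factor that responds to glucose and growth factors (chromosome 18, 34859823 to 34864984), had 77.5 CPM in control 1 and 29.1 to 36 in the rest. In β-tetO-NICD libraries 1, 2, 4 and 5 it had 56.6, 45.3, 23.9 and 28.1 CPM, which overlaps the controls over most of the range. The log2 fold change was −0.20 (95% interval −1.01 to 0.61, edgeR adjusted p = 0.716).

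Of the orphan nuclear receptors, Nr4a1 (Nur77, chromosome 15, 101254269 to 101274795) had 41.0, 29.3, 14.8 and 11.4 CPM in controls and 27.1, 11.05, 10.3 and 14.1 CPM in β-tetO-NICD islets. Controls 1 and 2 and β-tetO-NICD library 1 were high and the other 5 were low, so the groups overlapped broadly. The log2 fold change of −0.63 had a 95% interval of −1.60 to 0.35 (edgeR adjusted p = 0.330). It moved to −0.24 without control 1, to −1.03 without β-tetO-NICD library 1 and to −0.03 with the length relation as a covariate. Nr4a2 (Nurr1, chromosome 2, 57106830 to 57124003) had 4.24, 3.04, 2.65 and 2.31 CPM against 6.61, 1.57, 1.33 and 2.27 CPM. Library 1 of β-tetO-NICD was the highest of all 8 and the other 3 were below every control, which left an estimate of −0.06 with an interval of −1.17 to 1.04 (edgeR adjusted p = 0.939).

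**Figure D2:**
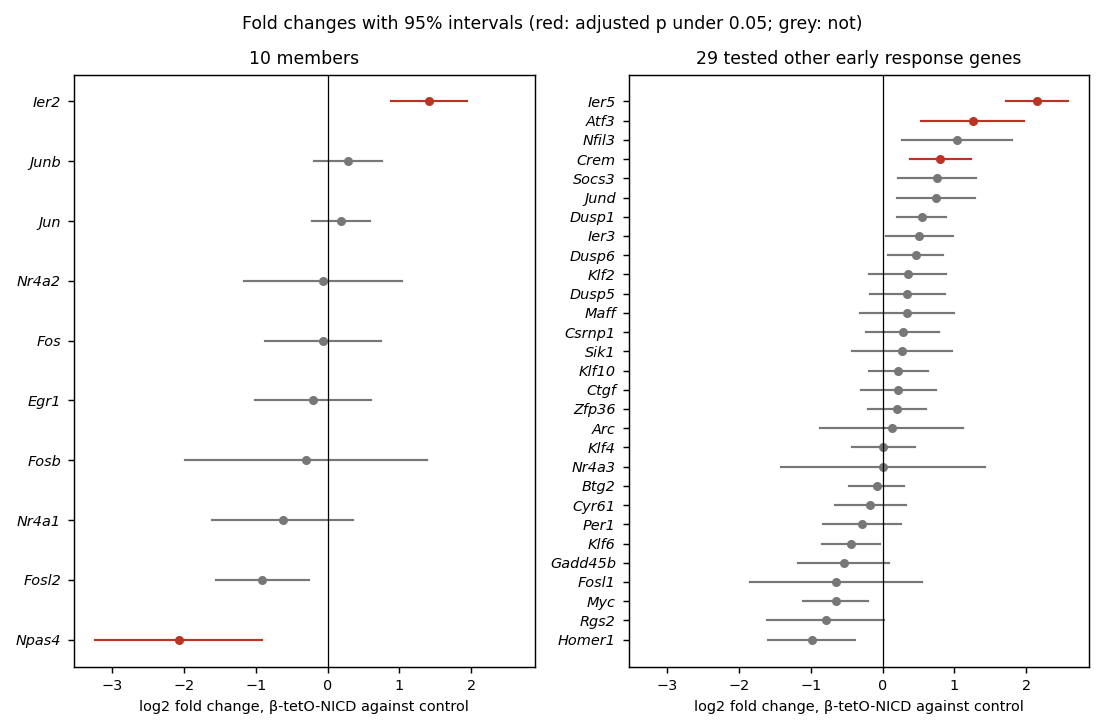
Log2 fold change of β-tetO-NICD against control islets with 95% intervals for the 10 members (left) and the 29 tested genes of a wider list of early response genes (right), red where the adjusted p of edgeR's quasi-likelihood test was under 0.05. Ier2 (1.41) and Npas4 (−2.08) are the red members, and Ier5, Atf3 and Crem the red genes of the wider list.

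Divided by the length of the longest annotated transcript, levels can be set side by side between genes. In controls the order in CPM per kb was Junb (16.8 ± 4.64), Jun (15.1 ± 2.07), Fos (13.8 ± 6.18), Egr1 (9.86 ± 4.996), Nr4a1 (9.45 ± 5.36) and Ier2 (8.88 ± 2.68, SD, n = 4 throughout). The next neighbour, Fosl2, was lower at 2.03 ± 0.472, and Fosb, Nr4a2 and Npas4 followed at 1.10, 0.858 and 0.689. Neighbours within the first 6 did not differ beyond their spread, and the step from Ier2 to Fosl2 did. In β-tetO-NICD islets Ier2 had the highest mean, 23.6 ± 4.5 CPM per kb, with Junb at 20.4 ± 3.39 within a spread of it and Jun at 17.1 ± 3.41. Npas4 was the last in both groups, at 0.164 ± 0.113 CPM per kb in β-tetO-NICD islets.

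The members varied more between mice of one group than most genes. In controls the coefficient of variation (CV, the SD as a percentage of the mean) of CPM was 109% for Fosb, 56.7% for Nr4a1 and 50.7% for Egr1. Npas4 had 48.55% and Fos 44.6%. Over all tested genes the control median was 18.1% and the 95th percentile 55.1%. Jun, at 13.7%, was the only member under that median. In β-tetO-NICD islets 7 of the 10 were above the median of 24.3%, led by Fosb (90.5%), Nr4a2 (84.1%) and Npas4 (68.8%), and Jun, Junb and Ier2 were below it. Low counts add to the CV of Npas4 and Nr4a2, which had 6 to 93 and 36 to 139 counts.

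The spread had a shape, in that the same libraries were high for most members. Control 1 was the highest control for 8 of the 10 (all but Fosl2 and Jun) and control 4 the lowest for 8, whereas over all tested genes control 1 was the highest for 23.4%. β-tetO-NICD library 1 was the highest of its group for 9 of the 10, against 38.4% of all tested genes, and the exception was Ier2, for which it was the lowest. The summed level of the 10 was 311, 200.3, 189 and 149.8 CPM in controls 1 to 4, and 291, 236, 185 and 183 CPM in libraries 1, 2, 4 and 5 of the β-tetO-NICD group. With each member set to its own mean and SD over the 8 libraries, the mean of the 10 was 1.06 SD in control 1 and 0.96 SD in β-tetO-NICD library 1, and between −0.74 and 0.06 in the other 6.

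**Figure D3:**
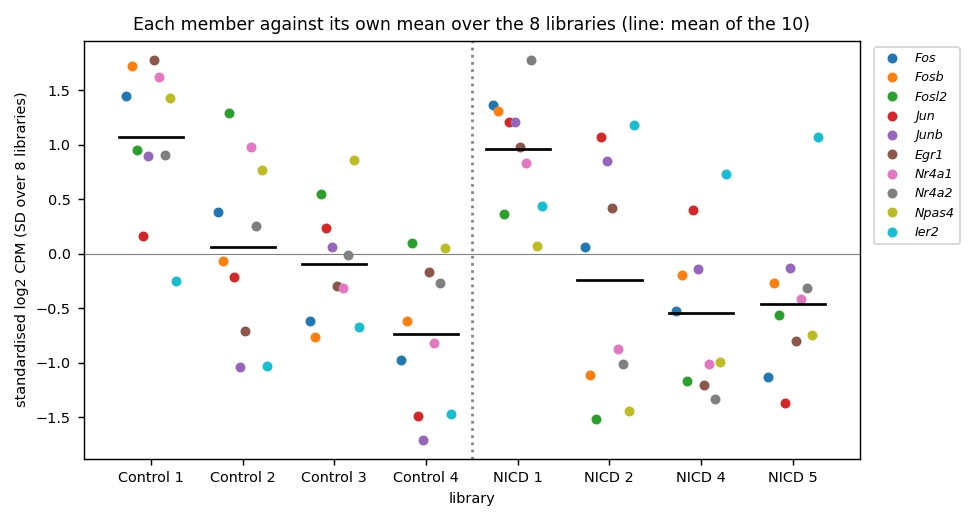
Standardised level of each member (log2 CPM minus its mean over 8 libraries, in SD) in each library, with a line at the mean of the 10. Control 1 and NICD 1 have the highest lines (1.06 and 0.96), and in the 3 other β-tetO-NICD libraries Ier2 lies above the line and Npas4 below it.

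Markers of acinar cells were also highest in these 2 libraries. The 20 acinar genes, which mark the enzyme-secreting tissue around islets, took 9.26% of the counts in control 1 and 13.93% in β-tetO-NICD library 1, and 4.5% to 6.92% in the other 6. Their part in the level of the members was not tested. With the acinar score as a covariate, Ier2 and Npas4 still passed, and Fosl2 passed as well (edgeR adjusted p = 0.0398). Of the 12 heat shock genes, 9 were highest among controls in control 3 and 2 in control 1 (Hspa8 and Hsph1). None was highest in β-tetO-NICD library 1 within its group. Over all tested genes the shares were 32.5% for control 3, 23.4% for control 1 and 38.4% for β-tetO-NICD library 1. The part of tissue handling in these levels was not tested.

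The genes outside the 10 whose log2 CPM followed the mean of the members most closely over the 8 libraries were Btg2 (Pearson's r 0.957), Irs2 (0.929), Anpep (0.924), Npnt (0.918), Gjd2 (0.915), Klf15 (0.908), Dkk2 (0.905) and Cel (0.902), the first 8 of 12745 genes with a mean of at least 50 counts. Btg2, an antiproliferative early response gene, ranged from 74.8 to 115.8 CPM, and Irs2, the insulin receptor substrate that cAMP induces in β cells, from 29.1 to 68.1 CPM. All 8 were highest in control 1 and in β-tetO-NICD library 1 within their groups, and Cel is an acinar enzyme that is also on the acinar list. The points share library, depth and tissue makeup, and the correlations are a description.

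Because most members were high in the same libraries, Ier2 and Npas4 were also read against each of the other 8 within the same library, a measure chosen after their levels had been seen and free of any scaling between libraries. For each count of Junb there were 0.458, 0.460, 0.437 and 0.417 counts of Ier2 in controls, against 0.633, 1.06, 1.04 and 1.26 for the β-tetO-NICD group. The control ratios lay within a narrow band, with an SD of 0.067 on the log2 scale, and the β-tetO-NICD mean was higher by 1.13 log2 units (SD 0.429). For each count of Fos there were 0.0915, 0.0765, 0.123 and 0.0673 counts of Npas4 in controls, against 0.0272, 0.00962, 0.0199 and 0.0325 in β-tetO-NICD islets. Here β-tetO-NICD library 1, which overlapped control 4 in CPM, was lower than every control, and the difference was −2.11 log2 units.

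Across the 16 ratios, those of Npas4 did not overlap between the groups for any of the 8 denominators, with differences of −2.48 to −1.21 log2 units. Those of Ier2 did not overlap for 5 (Fosl2, Jun, Junb, Egr1 and Nr4a1), and its 8 differences were between 1.13 and 2.40. The ratios of Ier2 to Fos, Fosb and Nr4a2 overlapped. These ratios are a description with no test, since Ier2 and Npas4 were taken as numerators because they differed between the groups, and no other member was. The 8 denominators come from the same libraries and the 16 ratios are therefore not independent.

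**Figure D4:**
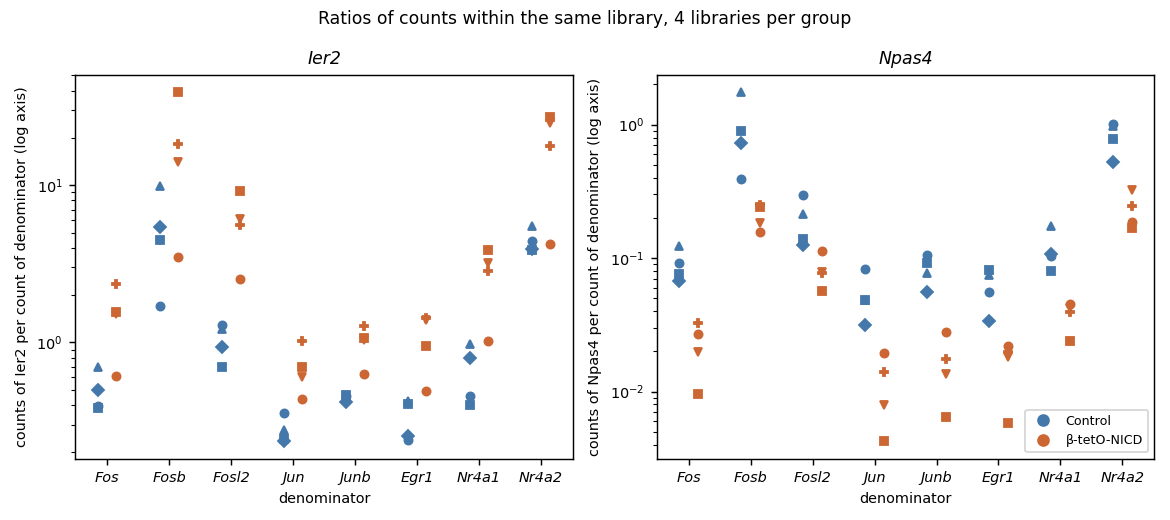
Counts of Ier2 (left) and Npas4 (right) per count of each of the other 8 members in the same library (log axes), with 4 control and 4 β-tetO-NICD libraries per column and 1 symbol shape per library. The colours separate fully in all 8 columns of Npas4 and in 5 of 8 for Ier2, and the control ratios of Ier2 to Junb lie closest together, at 0.417 to 0.460.

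A wider list of 32 early response genes set these results in context. Egr2, Egr3 and Egr4 were under the count minimum, with at most 23, 8 and 1 counts in any library, and of the 29 tested 3 rose and none fell, 10.3% against the 6.76% of all genes. With edgeR, 12 of the 29 had an unadjusted p under 0.05 (31.62% of all tested genes did), and DESeq2 called 9 (18.2% of all genes) and limma-voom 4 (7.18% of all genes). Their median log2 fold change was 0.22, with 20 positive and 9 negative.

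Ier5, a relative of Ier2 in the same small protein family, had 34.4, 25.2, 34.3 and 22.8 CPM in controls and 99.5, 140.0, 134 and 145 CPM in β-tetO-NICD islets. No library of one group came near the other, and the log2 fold change was 2.15 (standard error 0.20, edgeR adjusted p = 0.000309). Atf3, a stress-responsive partner of the Jun proteins, went from 2.42 ± 1.10 to 5.77 ± 0.867 CPM (SD, n = 4 each), a log2 fold change of 1.26 (edgeR adjusted p = 0.0477). Crem, whose products include the cAMP-inducible repressor ICER that acts at CRE sites, went from 15.5 ± 0.876 to 27.1 ± 6.81 CPM (SD, n = 4 each), a log2 fold change of 0.80 (edgeR adjusted p = 0.0371). Groups did not overlap for these 3, but Atf3 passed in 9 and Crem in 11 of 23 alternative fits, and Ier5 in 22. With the length relation as a covariate, the log2 fold changes of Ier5, Atf3 and Crem were 1.85, 1.32 and 0.50 (edgeR adjusted p = 0.000327, 0.156 and 0.238). Without β-tetO-NICD library 1, 9 genes of this list passed, or 31.0% of the list against 33.2% of all genes in that fit. The count was 3 without control 1. It was 1 when any other single library was left out (control 2, 3 or 4, or β-tetO-NICD library 2, 4 or 5).

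The groups did not overlap for 6 of the 29, against 16.1% of all genes, and 3 of these 6 did not pass. Dusp1, a phosphatase that ends MAP kinase signals, had 21.6 to 26.2 CPM in controls and 29.02 to 40.5 CPM in β-tetO-NICD islets (log2 fold change 0.54, edgeR adjusted p = 0.0605). Homer1, whose short form is induced by activity in neurons, had 4.59 to 6.49 CPM against 1.88 to 4.23 CPM (−0.99, edgeR adjusted p = 0.0584), and Myc had 7.59 to 10.4 CPM against 4.51 to 6.59 CPM (−0.65, edgeR adjusted p = 0.0779). Nr4a3, the remaining gene of the Nr4a family, was near the floor, at 0.435 to 0.784 CPM in controls and 0.0996 to 1.09 CPM in β-tetO-NICD islets. Arc and Klf4, also activity-dependent, had log2 fold changes of 0.13 and 0.01.

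The genes that carry calcium, cAMP and MAP kinase signals to these promoters showed no call. All 36 listed were tested and none passed with edgeR, 7 had an unadjusted p under 0.05, and DESeq2 called 2 and limma-voom 1. Over all genes the shares were 6.76%, 31.62%, 18.2% and 7.18% in that order, so no measure was above its background. Their median log2 fold change was −0.13, with 12 positive and 24 negative. The farthest from 0 were Camkk2, a kinase that activates CaM kinases (−1.12, edgeR adjusted p = 0.0569), Ep300, the coactivator p300 (−0.86, 0.202), and Prkacb, a catalytic subunit of protein kinase A (−0.63, 0.113). In the fit without control library 3 and β-tetO-NICD library 1, 10 of the 36 passed, or 27.8% against 39.5% of all genes in that fit.

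Other partners of AP-1 were 8 genes, of which Batf and Batf3 were under the minimum. None of the 6 tested passed with edgeR, 3 had an unadjusted p under 0.05, and DESeq2 called 2 and limma-voom 0, against 31.62%, 18.2% and 7.18% of all genes. The groups did not overlap for Atf2 and Mafg, at −0.39 and −0.40 (edgeR adjusted p = 0.106 and 0.0740), 2 of 6 against 16.1% of all genes. Atf7, Jdp2 and Mafg were the farthest from 0, at −0.74, 0.72 and −0.40 (edgeR adjusted p = 0.177, 0.113 and 0.0740). None of the 12 heat shock genes passed with edgeR, DESeq2 or limma-voom, 2 had an unadjusted p under 0.05, and their median was −0.04. Hsph1, Hspe1 and Hspa1a were at −0.74, 0.68 and −0.63 (edgeR adjusted p = 0.122, 0.182 and 0.2998).

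Cell type markers moved with the groups in part. Summed levels of α cell markers were 12070 to 43170 CPM in controls and 55530 to 70510 CPM in β-tetO-NICD islets. Each sum given here is weighted to the most abundant genes of its list and was not tested. Irx2 rose among the α cell markers reported, where edgeR called 4.19% of all genes higher. β cell markers summed to 156700 to 197400 CPM against 72010 to 171900 CPM. Slc2a2, G6pc2 and Ucn3 fell (3 of 9), where edgeR called 2.57% of all genes lower. The abundant Ins1, Ins2 and Iapp did not pass (edgeR adjusted p = 0.213, 0.295 and 0.206). Of the 9 estimates 7 were negative, and Nkx6-1 and Pdx1 had log2 fold changes of 0.04 each. Schwann and neural markers summed to 93.0 to 123 CPM against 60.6 to 74.6 CPM, where Th fell (1 of 7, against 2.57% of all genes lower). Hhex rose among the δ and PP cell markers (1 of 4, against 4.19% of all genes higher). Of these 4, 3 had positive estimates and Ppy was negative (−0.78, edgeR adjusted p = 0.254). No marker of acinar, duct, endothelial, leukocyte or mesenchymal cells passed with edgeR among 20, 7, 8, 7 and 8 tested, where 1, 3, 3, 0 and 1 had an unadjusted p under 0.05 and DESeq2 called 1, 3, 0, 0 and 0 and limma-voom none, again against 31.62%, 18.2% and 7.18% of all genes. DESeq2 and limma-voom each called 3 of the 9 β cell markers, and of the 4 δ and PP cell markers DESeq2 called 3 and limma-voom 1. The part of cell makeup in the levels of Ier2 and Npas4 was not tested.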

How the data were processed

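Whole-islet RNA was sequenced from 4 control and 4 β-tetO-NICD mice as stranded poly(A) libraries. The authors pseudoaligned the reads with kallisto (GRCm38) and deposited whole-number counts per gene symbol, not normalized; the version, the annotation and the rounding are not given in the sources used here. A second deposited table holds the authors' own limma comparison (log2 fold changes, mean expression, t, p, adjusted p, log odds and −log10 p) and was not used. The NICD columns are numbered 1, 2, 4 and 5 and the mice 1 to 4, so which of mice 3 and 4 columns 4 and 5 hold is not settled, and both were used as replicates of the group. No pair within a group agreed within sampling noise (chi-square of at least 31.5 per gene, over genes with at least 20 counts).

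The counts were fitted with edgeR 4.0.16 in R 4.3.3 (TMM, glmQLFit and glmQLFTest, no covariate) on 15082 genes having at least 10 counts in at least 4 libraries, with Benjamini-Hochberg adjustment over all of them and a threshold of 0.05. An adjusted p comes from this fit unless its sentence names another set of libraries, a covariate or an offset (also fitted with edgeR), DESeq2 1.42.0 or limma-voom (limma 3.58.1). The scripts were first tested on simulated counts. Levels per kb use the longest transcript of GENCODE M21, which also gave the coordinates. The 10 members and all lists were chosen with earlier results of these data known, and the named genes were every member, every called gene of a list or its 3 largest estimates, and the 8 genes most like the members. Dusp1, Homer1, Myc, Nr4a3, Arc, Klf4, Atf2, Hspa8 and genes under the count minimum were named after their values were seen. The same holds for Ins1, Ins2, Iapp, Nkx6-1, Pdx1 and Ppy. Alternatives were other normalizations and filters, other tests, covariates, subsets of libraries and each library left out. The result of 1 cell type marker is not reported here.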

Additional observations from a re-analysis of the deposited data

Results flagged for a closer look

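Of 26 groups of 4 libraries (13 named genes in each genotype), 2 held a library whose gap to its nearest neighbour exceeded, as a share of the range of the group, the 95% critical value of Dixon's test, where chance gives about 1 in 20. Both were control 1, with a gap of 0.879 of the range for Fosb (10.98 CPM against 1.46 to 2.62) and of 0.857 for Egr1 (77.5 CPM against 29.1 to 36). Control 1 also had the highest acinar share of the controls, 9.26% of counts, and the part of that share in either level was not tested. Without control 1 the log2 fold changes of Fosb and Egr1 were 0.83 and 0.22, both of the other sign than with all libraries.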

How the results depend on the processing

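Ier2 kept its direction in 23 of 23 alternative fits and passed in 21 (log2 fold change 1.04 to 1.62, adjusted p = 4.04e-06 to 0.314). Npas4 kept its direction in 22 of 22 and passed in 12 (−2.65 to −1.69, adjusted p = 0.00224 to 0.428). It could not be tested with at least 10 counts in every library, which left 1 member called. Of the 10 members, 2 passed in the reported fit, 1 to 3 with 1 library left out, 1 with Eif2s3y detection as a covariate (Npas4 lost, adjusted p = 0.0507), 1 with the length relation as a covariate, and 0 among the 5 libraries with at most 1 Eif2s3y count. Without control library 3 and β-tetO-NICD library 1, a fit chosen after seeing the data, 4 of 10 passed, near the 39.5% of all genes in that fit. These were Nr4a1 (edgeR adjusted p = 0.0431) and Fosl2 (0.00827) beside Ier2 and Npas4. The count over all genes was 1020 and became 2739 with DESeq2, 1538 with a transcript length offset, 430 with the length relation as a covariate, 116 in those 5 libraries, 6008 without control library 3 and β-tetO-NICD library 1, and 319 (without β-tetO-NICD library 2) to 4954 (without β-tetO-NICD library 1) with 1 library left out. The causes were not tested.

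Replicate numbers 1 and 2 are settled in both groups. Deviations from the group means correlated at 0.276 for number 1 and −0.09 for number 2, and at −0.09 and 0.163 for the unmatched pairs. With only 2 such pairs and no shared source in the labels, the numbers were not taken to pair the samples. The fit with a replicate block on these 4 libraries called 610 genes and 2 members, and the same 4 without the block, chosen after seeing the data, 51 genes and 0 members.

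Estimates near 0 changed sign. Fos was 0.005 with upper-quartile normalization and Egr1 0.093 with the replicate block, Nr4a2 was 0.166 in the 4 libraries without it, and Fos, Fosb, Egr1 and Nr4a2 were 0.419, 0.736, 0.148 and 0.474 with the length relation as a covariate, chosen after seeing the data. With 1 library left out Fos was between −0.40 and 0.27, Fosb between −1.13 and 0.83, Egr1 between −0.44 and 0.22 and Nr4a2 between −0.83 and 0.18. Normalization moved the median of all genes by at most 0.077 on the log2 scale. Depth limits Npas4, with 6 to 26 counts in β-tetO-NICD libraries, and Egr2, Egr3 and Egr4, which were too low to test.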
